A study of Mus musculus with 25 samples.

Results

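A group of 16 genes met a rule that asked for a high transcript level in solvent-treated mouse 8-cell embryos. The same rule asked for almost none in mouse embryonic stem cells (mESCs). The embryo and the mESC tables share 19434 gene symbols, of which the 16 made 0.0823%. The rule kept a symbol with at least 50 CPM (read counts scaled to a common library total of 1000000) in both embryo libraries treated with the solvent DMSO and with under 0.5 CPM in each of 3 wild-type (WT) mESC libraries. It left out 10 oocyte genes by name, of which 0 met both thresholds. Of the 16 symbols, Atp5o, a subunit of the mitochondrial ATP synthase, and Ndor1, a flavin oxidoreductase, had a further row in the mESC table that was expressed. For Atp5o that row stood at 102.5, 103.5 and 105.3 CPM in the WT libraries, and for Ndor1 at 37.7, 32.5 and 36.8 CPM. These 2 symbols were set apart after their values were seen, because the silent row was a second gene model of an expressed symbol, and the other 14 genes are described here. The 14 genes were chosen by their values in the DMSO and WT libraries, so the contrast between embryos and mESCs is a description and has no test.

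The embryos came from B6D2F1 and Cast/EiJ parents, carried no mutation by their labels, and were collected 56 hours post fertilization in pools of 30 to 35. One pair of pools had received DMSO and the other pair SGC0946, an inhibitor of the histone methyltransferase Dot1L, at a dose the labels do not give. The mESCs were of the v6.5 line, a line from a hybrid mouse blastocyst, untreated, with 3 WT and 2 Dot1L knockout (KO) RNA libraries. Chromatin of the same line was immunoprecipitated for lysine 79 of histone H3 carrying 2 (H3K79me2) or 3 methyl groups (H3K79me3), with 2 WT and 2 KO peak lists per mark. The labels do not say how the KO was made, whether it is 1 clone, which part of Dot1l was deleted, or whether replicates were separate cultures or collections, so p-values measure only the spread between these samples.

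Dot1L is the enzyme that places methyl groups on lysine 79 of histone H3, a mark found along the bodies of transcribed genes. At the 8-cell stage the embryo runs on its own genome and is about to compact and to set apart its first outer and inner cells. mESCs are grown from the inner cells of a later stage, the blastocyst, so a gene transcribed during cleavage can be silent in them. The 14 genes fall into genes for surface and secreted proteins (Alppl2, Slc34a2, Vnn1, Adtrp, Cilp), for nuclear and nucleic-acid-binding proteins (Foxe1, Samd1, Khdc1a, Khdc1c), for a signalling protein (Guca1a) and for products known mainly by a family or a clone name (Bex6, Gm11545, A530032D15Rik, C130026I21Rik). None of the 14 was on the 3 lists read beside them, which hold oocyte-expressed families, genes of genome activation, and trophectoderm and epithelial genes. The lists were chosen with earlier results of these data known, so this absence describes the lists and not the origin of the transcripts.

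The stretches around the transcription starts of 5 genes are printed because they carry the 2 sequence features that members share. Windows of 300 bases (250 before and 50 after the start, RefSeq, GRCm38.p6) were held for 9 of the 14 genes, with 2 windows for Adtrp. In the first 3, capitals mark TAATCC, a site known to be bound by homeodomain proteins of the OTX type, or its reverse complement GGATTA. They are the windows of Alppl2 at chr1:87089879-87090178, Gm11545 at chr11:94761133-94761432 and Guca1a at chr17:47400557-47400856, all on the minus strand, written 5′ to 3′ along the gene.
Alppl2: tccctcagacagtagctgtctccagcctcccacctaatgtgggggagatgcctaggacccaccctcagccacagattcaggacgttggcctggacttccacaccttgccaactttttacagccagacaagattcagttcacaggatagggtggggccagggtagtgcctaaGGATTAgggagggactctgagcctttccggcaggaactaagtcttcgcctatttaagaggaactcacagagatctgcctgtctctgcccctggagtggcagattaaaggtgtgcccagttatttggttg
Gm11545: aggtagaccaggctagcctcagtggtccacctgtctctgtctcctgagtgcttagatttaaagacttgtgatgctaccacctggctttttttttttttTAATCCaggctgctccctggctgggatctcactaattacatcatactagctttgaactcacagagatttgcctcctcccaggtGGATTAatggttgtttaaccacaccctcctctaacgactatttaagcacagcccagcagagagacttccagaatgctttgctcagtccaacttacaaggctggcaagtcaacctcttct
Guca1a: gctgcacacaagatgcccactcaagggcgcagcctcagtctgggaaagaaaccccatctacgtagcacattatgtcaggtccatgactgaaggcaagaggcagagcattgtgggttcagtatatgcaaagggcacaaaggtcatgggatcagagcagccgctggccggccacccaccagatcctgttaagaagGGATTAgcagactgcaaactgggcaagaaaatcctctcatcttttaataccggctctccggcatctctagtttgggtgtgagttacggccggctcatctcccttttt
TAATCC was present on either strand in 3 of 10 member windows, against 7.06% of 32851 windows of all genes. Counted from the start site, its first base was at −79 in Alppl2, at −152 and −69 in Gm11545 and at −57 in Guca1a. These starts lay 6.01 kb (Alppl2), 0.015 kb (Gm11545) and 12.9 kb (Guca1a) inside the outer end of the annotated gene body, so those of Alppl2 and Guca1a are internal starts of the annotation, and the data do not show which start the embryo used. A match is a description of letters and not of a bound site. Of the other motifs searched on both strands, GGAATG, the core known from TEAD factors, was in the windows of Adtrp and Slc34a2 and in 14.7% of all windows. TATAAA was in 0 of the 10 windows (13.6% of all), TGATTNAAT in 0 (0.718% of all) and TCAAGGTCA in 0 (0.423% of all). The member windows held a median of 6.5 CG pairs, from 1 in Gm11545 to 30 in Slc34a2, against a median of 7 over all windows.

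The next 2 windows are shown because they are nearly the same sequence. They belong to A530032D15Rik at chr1:85109804-85110103 and C130026I21Rik at chr1:85270517-85270816, both on the minus strand, and capitals mark the 21 bases of each window without a partner in the other.
A530032D15Rik: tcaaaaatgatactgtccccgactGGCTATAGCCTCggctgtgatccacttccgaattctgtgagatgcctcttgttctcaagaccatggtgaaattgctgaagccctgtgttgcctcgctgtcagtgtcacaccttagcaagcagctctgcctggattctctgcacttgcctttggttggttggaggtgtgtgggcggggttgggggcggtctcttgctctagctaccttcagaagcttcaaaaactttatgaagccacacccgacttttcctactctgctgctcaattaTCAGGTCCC
C130026I21Rik: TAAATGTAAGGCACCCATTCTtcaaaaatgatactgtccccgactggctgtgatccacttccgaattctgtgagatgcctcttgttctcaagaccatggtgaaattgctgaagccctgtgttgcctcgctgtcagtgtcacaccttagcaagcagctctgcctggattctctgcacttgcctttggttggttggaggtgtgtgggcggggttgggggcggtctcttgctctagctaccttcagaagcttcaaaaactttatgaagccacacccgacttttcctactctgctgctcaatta
The windows aligned over 279 of 300 bases (93.0%), while no other pair of member windows shared more than 164 bases (54.7%). The unmatched letters are one inserted run and one end in A530032D15Rik and one end in C130026I21Rik. Both genes had fractional estimated counts in mESCs, and a fraction means that a read was divided between targets, so their values are uncertain. The start used for the C130026I21Rik window lay 12.3 kb inside the outer end of its annotated body, and that of A530032D15Rik 0.444 kb inside. Transcripts were not compared, and whether reads were shared within this pair, or between Khdc1a and Khdc1c, members of one family with whole counts in mESCs, was not tested.

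All 14 genes were protein coding in the RefSeq annotation of GRCm38.p6, and 5 lay on chromosome 1, which holds 5.57% of the shared symbols and 5.61% of those at 50 CPM or more in both DMSO libraries. Khdc1a (chr1:21349677-21352199) and Khdc1c (chr1:21368331-21369743) lay 16.1 kb apart, and A530032D15Rik (chr1:85088139-85110297) and C130026I21Rik (chr1:85241286-85282883) lay 131 kb apart. Alppl2 (chr1:87086690-87095934) was the fifth. The others were Foxe1 (chr4:46343644-46345774), Slc34a2 (chr5:53049353-53071664), Samd1 (chr8:83997516-84000415), Cilp (chr9:65265180-65280614), Vnn1 (chr10:23894688-23905344), Gm11545 (chr11:94755129-94761197), Adtrp (chr13:41763145-41847616), Bex6 (chr16:32179800-32186944) and Guca1a (chr17:47394557-47413514). The bodies of 6 genes overlapped another gene, namely A530032D15Rik, Alppl2, C130026I21Rik, Cilp, Guca1a and Slc34a2, and whether the counting used strand is not given in the sources used here.

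Library totals were 24950199 to 32479590 counts in embryos, of which the ribosomal RNA gene Rn45s took 11.9 to 13.8% and was left out of the CPM totals, and 26860527 to 33755064 counts in mESCs. Of 8 markers listed for the 8-cell embryo, Cdx2, Gata3 and Nanog were at 6.36 to 37.2 CPM in embryos and the other 5 reached 50 CPM in both DMSO libraries. Of 7 mESC markers, 5 also reached 50 CPM in both DMSO libraries, Pou5f1 and Klf4 at higher levels than in WT mESCs, while Sox2 was at 2.30 to 3.00 CPM in embryos against 383.6 to 406.3 CPM in mESCs. Markers of cumulus cells summed to 9.97 to 15.5 CPM and those of sperm to 1.39 to 2.16 CPM in embryos. Oocyte and polar body markers summed to 444.8 to 545.3 CPM in embryos, of which Khdc3 made 216.2 to 274.5 CPM, and Figla was at 0 in 2 of the 4 libraries. Markers of feeder fibroblasts summed to 147.5 to 188.6 CPM in WT and to 256.1 and 200.3 CPM in KO. Dot1l, the targeted gene, was at 101.5, 93.3 and 96.5 CPM in WT and at 86.3 and 73.7 CPM in KO (log2 fold change −0.39, edgeR adjusted p = 0.00016). Most of its transcript level was thus kept in the libraries labelled KO, and with the deleted part not given this does not check the label. In bulk libraries, fewer cells with a transcript and less of it per cell cannot be told apart.

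The level of each gene in the embryo and in the mESC is set across 2 tables made with different kits and counting tools. CPM is not divided by transcript length, so levels are compared between samples of 1 gene and not between genes. Alppl2, an alkaline phosphatase anchored to the cell surface, stood at 2383 and 2215 CPM in the DMSO libraries and at 0.0705, 0.0889 and 0.102 CPM in WT mESCs. Slc34a2, the sodium-dependent phosphate transporter of epithelia, stood at 235.3 and 225.4 CPM in DMSO embryos, and its only WT count was 1 in replicate 3. The KH-domain genes had 1 count each over the 3 WT libraries and stood in DMSO embryos at 194.6 and 198.8 CPM (Khdc1a) and at 204.9 and 212.0 CPM (Khdc1c). A value of 0 in an mESC library still allows a level of up to 0.0889 to 0.112 CPM (3 counts of the library total, counting error only).

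The plot of levels by library shows the gap of the rule between the embryo and the mESC libraries, and the plot of all shared genes shows how few genes lie in that corner. Of 3452 symbols with 1 row in the mESC table and at least 50 CPM in both DMSO libraries, 2460 (71.3%) had a mean of at least 50 CPM in WT mESCs, 841 (24.4%) lay from 10 to 50, 121 (3.51%) from 1 to 10, 15 from 0.5 to 1 and 15 (0.435%) under 0.5 CPM, the 14 genes and Pramel5, which was above the threshold in 1 WT library. Just inside the embryo threshold, the lower DMSO value was 51.7 CPM in Cilp, 54.3 in Foxe1 and 77.3 in A530032D15Rik, and just outside it was 49.1 in Padi6 (also left out by name), 43.5 in Tdpoz4 and 41.5 in Khdc1b. Just inside the mESC threshold, the highest WT value was 0.493 CPM in Adtrp, 0.489 in Guca1a and 0.415 in Cilp, and just outside it was 0.638 in Sp140, 0.640 in Pramel5 and 0.745 in Gata6.

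**Figure D1:**
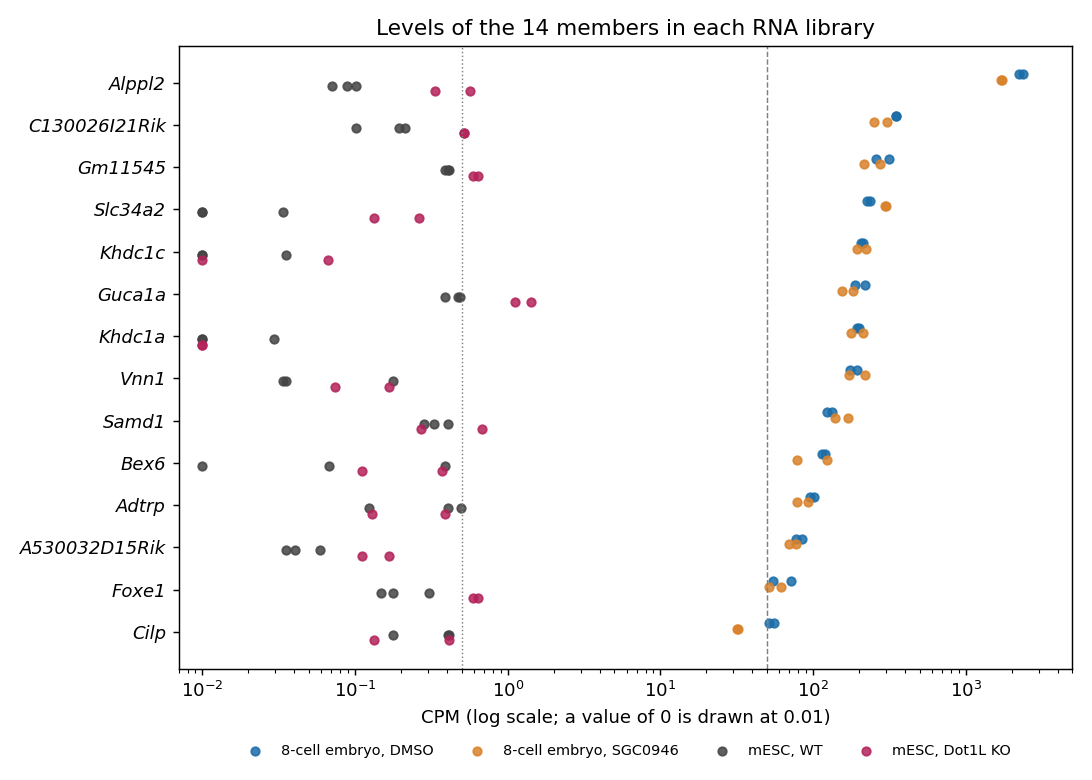
CPM on a log axis of each of the 14 genes in the 2 DMSO and 2 SGC0946 embryo libraries and the 3 WT and 2 KO mESC libraries, 1 point per library, with 0 drawn at 0.01 and lines at the rule's 50 and 0.5 CPM. Apart from Cilp with SGC0946 at 32.3 and 31.7 CPM, embryo points lie right of the 50 CPM line, and the highest mESC point is Guca1a in KO at 1.41 CPM.

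**Figure D2:**
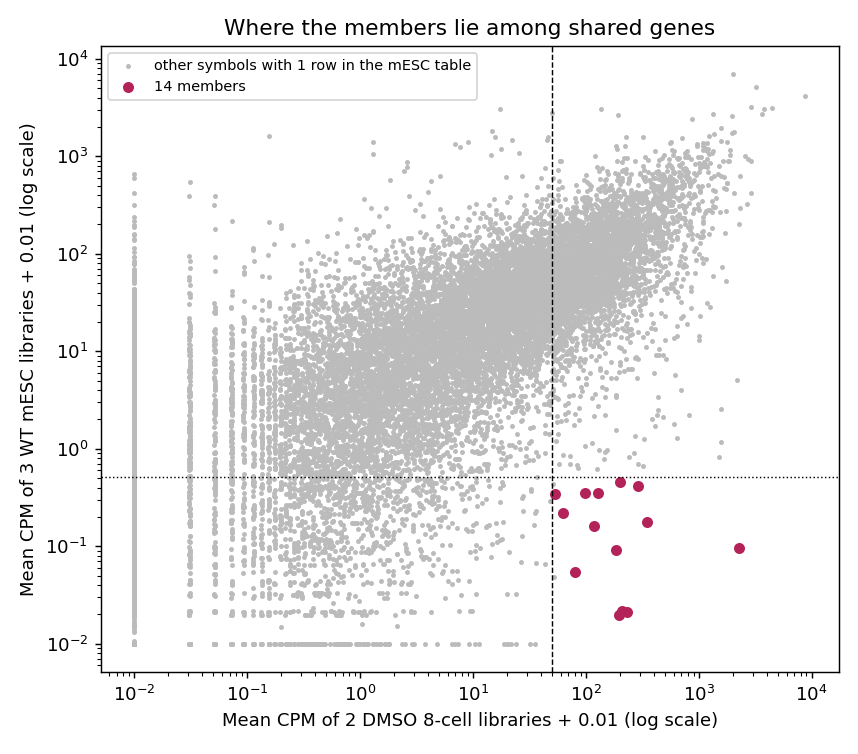
Mean CPM + 0.01 of the 2 DMSO embryo libraries against that of the 3 WT mESC libraries, both on log axes, for symbols with 1 row in the mESC table, with the 14 genes in colour and lines at the rule's thresholds. The rule was applied to each library and not to the mean, so a grey point can lie in the lower right corner.

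Transcripts of all 14 genes stayed present in embryos given the Dot1L inhibitor. Alppl2 (0.745 times the DMSO mean), C130026I21Rik (0.796 times) and Cilp (0.597 times) were lower and Slc34a2 was higher (1.30 times) at an unadjusted p under 0.05, and no gene passed after adjustment. In edgeR's quasi-likelihood test over 14351 genes with Benjamini-Hochberg adjustment, 0 of the 14 had an adjusted p under 0.05, as had 0% of all genes. At an unadjusted p under 0.05 there were 4 of 14, against 8.15% of all genes, and 3 of these 4 were lower, against 4.05% of all genes that were lower at that p. Of 3440 other genes with at least 50 CPM in both DMSO libraries, 478 (13.9%) had such a p. The DMSO libraries both chose the genes and are the control here, so a fall of the group is not independent of the choice.

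Alppl2 had the lowest p of the 14 and rank 9 among all genes. It went from 2383 and 2215 CPM with DMSO to 1708 and 1719 CPM with SGC0946 (log2 fold change −0.50, SE 0.10, edgeR adjusted p = 0.203). Both inhibitor libraries were below both DMSO libraries, and the inhibitor libraries lay closer to each other than the DMSO libraries did. DESeq2 and limma-voom called Alppl2, with adjusted p-values of 0.00111 and 0.000878, as did edgeR without a filter on low counts (0.00526). Of 8 other tools, scalings and filters, 4 called it, a replicate block among them. edgeR did not call it with DESeq2 size factors (adjusted p = 0.184) or upper-quartile scaling (0.19). Nor did it with Rn45s left out (0.196) or at least 10 counts in every library (0.0576). Leaving out 1 library leaves 1 in its group. The log2 fold change of Alppl2 was then −0.46 or −0.54 without an SGC0946 library and −0.45 or −0.55 without a DMSO library.

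Cilp encodes a matrix protein of cartilage. It stood at 55.5 and 51.7 CPM with DMSO and at 32.3 and 31.7 CPM with SGC0946 (log2 fold change −0.82, SE 0.22, edgeR adjusted p = 0.346). This was the largest fitted difference among the 14, with no overlap of the groups, and DESeq2 called it with an adjusted p of 0.0374. Slc34a2 went the other way, from 235.3 and 225.4 CPM to 297.1 and 300.7 CPM (log2 fold change 0.30, SE 0.13, edgeR adjusted p = 0.573). Its groups did not overlap either, and no alternative called it.

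The remaining surface and secreted products differed less. Vnn1, the pantetheinase vanin-1, stood at 173.9 and 195.0 CPM with DMSO and at 218.7 and 171.5 CPM with SGC0946, so the inhibitor libraries enclosed the DMSO libraries. Adtrp, a membrane hydrolase, stood at 100.9 and 95.6 CPM against 78.4 and 92.4 CPM (log2 fold change −0.27, SE 0.18, edgeR adjusted p = 0.769). Its inhibitor libraries lay below the DMSO libraries, although SGC0946 replicate 2 came close to DMSO replicate 2.

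Among genes for nuclear and nucleic-acid-binding proteins, Samd1, which encodes a protein that binds CpG islands, was the one whose groups did not overlap. It stood at 124.0 and 132.4 CPM with DMSO and at 168.2 and 139.8 CPM with SGC0946 (log2 fold change 0.18, SE 0.16, edgeR adjusted p = 0.837). Foxe1, a forkhead transcription factor known from the thyroid, stood at 54.3 and 72.2 CPM against 51.5 and 62.1 CPM. Khdc1a stood at 194.6 and 198.8 CPM against 177.5 and 211.4 CPM, and Khdc1c at 204.9 and 212.0 CPM against 194.5 and 222.7 CPM. In both Khdc1 genes SGC0946 replicate 1 was the lowest library and SGC0946 replicate 2 the highest. Their log2 fold changes of −0.09 and −0.07 had SEs of 0.15 and 0.14.

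Guca1a encodes an activator of guanylate cyclase known from photoreceptors. It stood at 187.2 and 218.6 CPM with DMSO and at 155.5 and 183.6 CPM with SGC0946 (log2 fold change −0.33, SE 0.16, edgeR adjusted p = 0.623), and the groups did not overlap. C130026I21Rik stood at 350.0 and 349.0 CPM against 251.0 and 305.2 CPM (log2 fold change −0.40, SE 0.14, edgeR adjusted p = 0.446). Without SGC0946 replicate 2 it was called, with a log2 fold change of −0.59 and an adjusted p of 0.0189. A530032D15Rik, which has nearly the same start window, stood at 84.6 and 77.3 CPM against 77.6 and 69.2 CPM. These groups overlapped (log2 fold change −0.22, SE 0.18). Gm11545 stood at 258.7 and 315.7 CPM against 215.1 and 272.8 CPM, and Bex6, of a family named for genes on chromosome X but itself on chromosome 16, at 114.6 and 119.6 CPM against 78.6 and 123.1 CPM. Both overlapped, and in Bex6 the inhibitor libraries lay on either side of the DMSO libraries.

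Over the group, 11 of 14 log2 fold changes were negative and 3 positive, with a median of −0.25 and a range from −0.82 to 0.30. The median was 0.01 over all 14351 genes and −0.08 over the 3440 other genes high in DMSO embryos, of which 64.6% were negative. Among the tested markers of the 8-cell embryo, the median was −0.38, with 4 of 8 lower and 0 higher at an unadjusted p under 0.05, and their sum was 3110 and 3011 CPM with DMSO and 2382 and 2760 CPM with SGC0946. The mESC markers, which share Pou5f1 and Nanog with that list, had a median of −0.43, with 3 of 7 lower and 0 higher. The part of these shifts in the values of the 14 genes was not tested. With an mESC threshold of 0.25 CPM, which kept 7 of the 14 genes, the median was −0.09. Both inhibitor libraries lay below both DMSO libraries in 5 of the 14 genes, against 14.6% of all genes and 23.2% of the other genes high in DMSO, and above them in 2, against 24.6% and 22.2%. The groups of the other 7 genes overlapped. These counts were read from CPM without the scaling used in the fits. The overlap in A530032D15Rik rests on 77.3 CPM with DMSO against 77.6 CPM with SGC0946. The inhibitor libraries were unequal, since the median of the 14 was −0.42 without SGC0946 replicate 2 and −0.12 without SGC0946 replicate 1, and the summed level was 4522 and 4478 CPM with DMSO and 3705 and 3905 CPM with SGC0946. DESeq2 called 126 and limma-voom 55 of all genes in embryos, where edgeR called 0. The plot of embryo levels relative to the DMSO mean shows the genes in order of their fitted change.

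**Figure D3:**
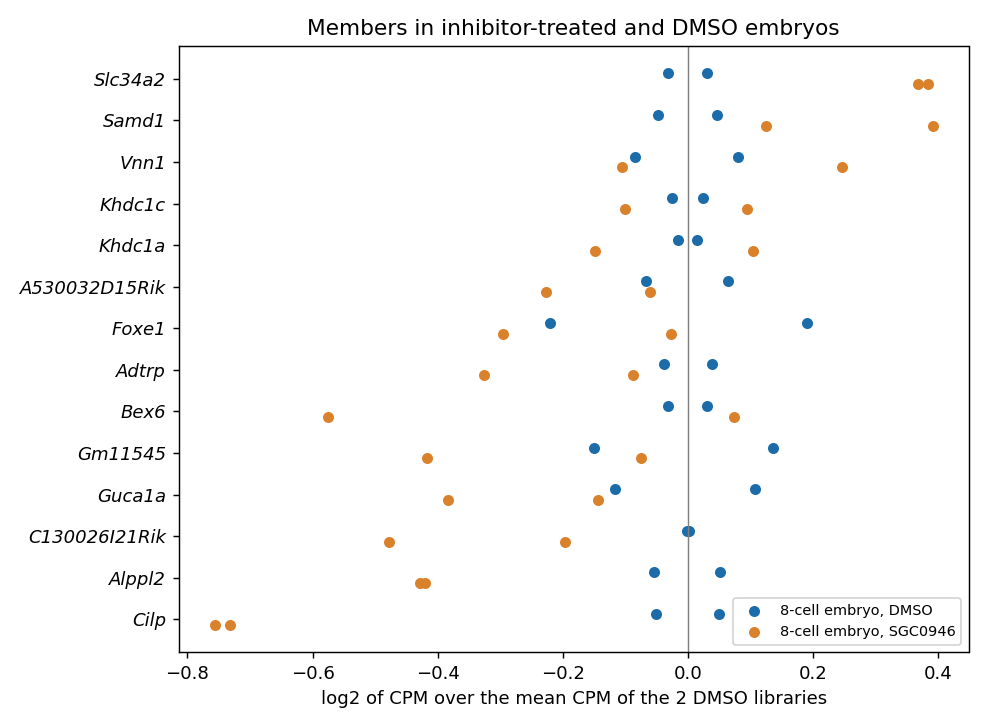
Log2 of each embryo library's CPM over the mean CPM of the 2 DMSO libraries, 1 point per library, for the 14 genes in order of the fitted log2 fold change. Cilp and Alppl2 have both SGC0946 points well left of both DMSO points, Slc34a2 has both to the right, and in 7 genes the 2 groups overlap.

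In mESCs labelled Dot1L KO the 14 genes stayed near silence, at no more than 37.9 estimated counts in a library. Guca1a, Foxe1 and C130026I21Rik were called as higher in KO, and the highest level of any of the 14 in any KO library was 1.41 CPM. Only 8 of the 14 passed the filter on low counts, and a gene that is low in WT by choice can pass through its KO libraries. Foxe1 and C130026I21Rik, with at most 9 and 6.50 counts in a WT library, passed through their KO libraries, where they were high. Their calls are thus not independent of the filter, and the tested genes do not stand for the group. Of the 8, 3 were called in edgeR's quasi-likelihood test with an adjusted p under 0.05, against 43.9% of 19532 tested genes, and all 3 were higher, against 22.3% of tested genes. Summed over the 14 genes, the level was 2.59, 2.83 and 2.50 CPM in WT and 5.22 and 5.17 CPM in KO.

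For Guca1a the WT libraries gave 11, 16.5 and 13.9 estimated counts and the KO libraries 37.9 and 33.1, or 0.388, 0.489 and 0.469 CPM against 1.41 and 1.11 CPM. The log2 fold change was 1.37 (SE 0.29, edgeR adjusted p = 0.00206), both KO libraries lay above the WT libraries, and all 12 alternatives called it, with adjusted p-values from 0.000269 to 0.0321. Its body overlaps 1700001C19Rik and the pseudogene Gm5814, and fractional counts show that part of its reads was assigned by estimation.

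For Foxe1 the WT libraries gave 5, 5 and 9 counts and the KO libraries 16 and 19, or 0.176, 0.148 and 0.305 CPM against 0.596 and 0.637 CPM (log2 fold change 1.45, SE 0.43, edgeR adjusted p = 0.015). Its call was lost in DESeq2 (adjusted p = 0.0893) and without WT replicate 2 (0.0519), KO replicate 1 (0.0651) or KO replicate 2 (0.0864). For C130026I21Rik the WT libraries gave 6, 6.50 and 3 estimated counts and the KO libraries 13.8 and 15.4, or 0.212, 0.193 and 0.102 CPM against 0.514 and 0.517 CPM (log2 fold change 1.42, SE 0.45, edgeR adjusted p = 0.0222). Its call was lost in DESeq2 (adjusted p = 0.128) and without WT replicate 3 (0.0594), KO replicate 1 (0.109) or KO replicate 2 (0.0912). For both genes KO lay above WT in every library, at a depth where Foxe1 rests on 19 counts over the WT libraries and 35 over the KO libraries.

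Another 4 genes had both KO libraries above all WT libraries. Alppl2 went from 2, 3 and 3 WT counts to 9 and 17 KO counts, and Slc34a2 from 0, 0 and 1 to 7 and 4. Neither passed the filter on low counts. In a fit without that filter both were called, with edgeR adjusted p-values of 0.00503 and 0.0246. A530032D15Rik went from 1, 2 and 1.19 estimated WT counts to 3 and 5, and Gm11545 from 11, 14 and 12 WT counts to 16 and 19, the same KO counts as Foxe1. Gm11545 was tested and not called (log2 fold change 0.50, SE 0.34, edgeR adjusted p = 0.263).

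In the other 7 genes the genotypes overlapped. Samd1 had 8, 11.1 and 12 estimated WT counts against 18.1 and 8.04 KO counts, so its KO libraries lay on either side of WT. Adtrp had 11.4, 16.6 and 3.65 against 3.46 and 11.6 estimated counts, and Cilp had 5, 14 and 12 against 11 and 4. Bex6 had 11, 0 and 2 counts against 3 and 11, and Vnn1 had 1, 6 and 1 against 2 and 5. These 5 genes varied as much within a genotype as between genotypes. Khdc1c had 1, 0 and 0 WT counts against 0 and 2, and Khdc1a had 0, 1 and 0 against 0 in both KO libraries, so neither Khdc1 gene was detectable beyond single counts.

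Counted over the group, 7 genes had KO above WT in every library, 0 had KO below WT, and 7 overlapped. KO could not lie below WT in Bex6, Khdc1a, Khdc1c and Slc34a2, which had a WT library at 0. The share of all genes with KO below WT is not given here, so that 0 has no background beside it. Over all tested genes 43.7% had both KO libraries above all WT libraries. Among 9693 mESC table rows that were also under 0.5 CPM in every WT library and had a count, the share was 17.4%. A mean KO level of at least 0.5 CPM was reached by Guca1a, Foxe1, Gm11545 and C130026I21Rik, 4 of the 14, against 4.53% of those 9693 rows. Those rows were not matched to the 14 genes for their WT level. The mean WT level was already 0.449 CPM in Guca1a and 0.403 in Gm11545, and it was 0.210 in Foxe1 and 0.169 in C130026I21Rik. Guca1a alone reached 1 CPM. Summed feeder markers were also higher in KO than in WT, with 3 of 5 tested markers called higher and Lum at 0.181 to 0.255 CPM, and their part in these values was not tested. The WT values chose the genes, so a rise from WT to KO is not independent of the choice.

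**Figure D4:**
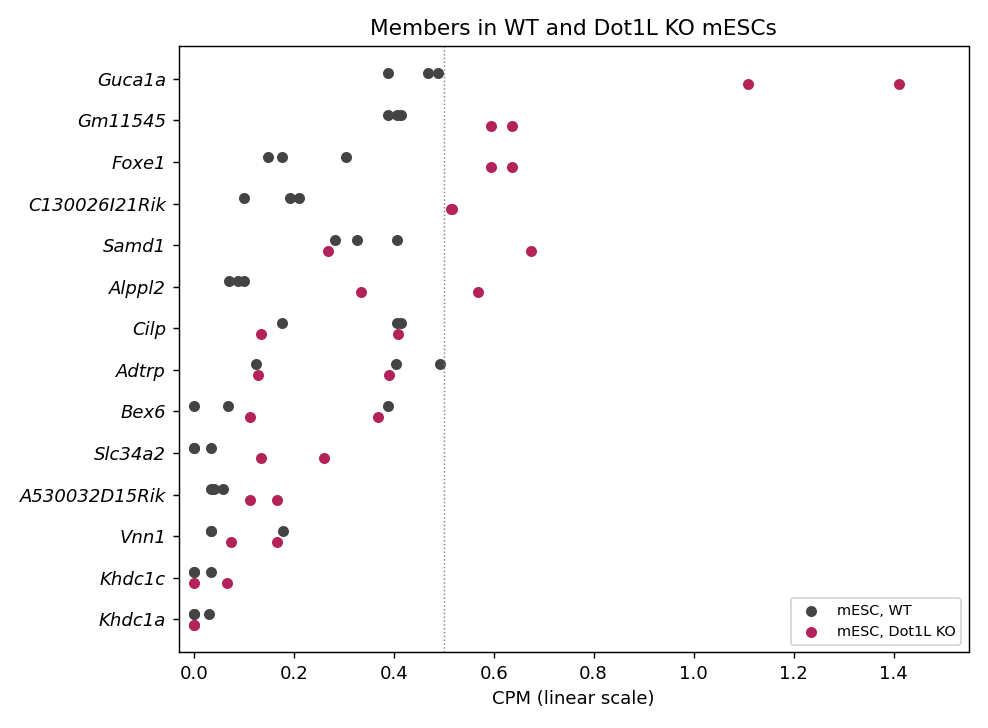
CPM on a linear axis of the 14 genes in the 3 WT and 2 KO mESC libraries, 1 point per library, in order of the mean KO level, with a line at the rule's 0.5 CPM. Guca1a in KO lies at 1.41 and 1.11 CPM, 7 genes have both KO points right of all WT points, and Khdc1a lies at 0 in both KO libraries.

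The peak lists are an mESC readout that the rule did not use. In WT mESCs, H3K79me2 regions found in both lists overlapped the body of 1 of the 14 genes, Samd1, against 37.7% of 19430 placed genes, 0.443% of the 4066 other genes silent in WT by the same threshold, and 90.7% of the 3438 other genes high in DMSO embryos. Samd1 had 1 peak per WT list, from 83998951 to 84000606 and from 83998967 to 84000514 on chromosome 8, covering 50.5 and 50.0% of its body at an enrichment of 5.39- and 6.22-fold by the authors' values. Samd1 thus had 8 to 12 estimated counts per WT library together with a mark over its body. It is called silent by these counts alone, and whether they missed part of its transcripts was not tested. Atp5o and Ndor1, set apart above, also carried H3K79me2 peaks in both WT lists, over 50 and 18.2% of their bodies in list 1. H3K79me2 peaks lay on 0 of the 14 genes in either KO list, and the share over all genes was not computed for the KO lists.

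H3K79me3 regions found in both WT lists overlapped 1 of the 14, Foxe1, against 9.46% of placed genes, 0.910% of the other silent genes and 30.2% of the other genes high in DMSO embryos. The strongest Foxe1 peaks lay from 46344612 to 46345368 and from 46344675 to 46345170 on chromosome 4, at 7.20- and 2.98-fold by the authors' values. KO list 2 also held a Foxe1 peak, of 192 bases and 4.17-fold, and KO list 1 held none. In WT list 1 alone, Samd1 carried an H3K79me3 peak too, of 415 bases in its body and 4.14-fold. That list marked 24.8% of placed genes and 6.35% of the other silent genes. Among the H3K79me3 peaks with the highest scores, 0 of the 14 genes were marked, against 6.08% of placed genes and 0.394% of the other silent genes. The genes called higher in KO had no H3K79me2 peak in WT, and of them Foxe1 had an H3K79me3 peak. H3K79me2 regions lay on only 0.443% of the other silent genes, so this absence is not particular to the called genes.

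The 3 lists read beside the group were described by their counts. Of 46 oocyte-expressed genes, 41 were in both tables, 27 were silent in WT mESCs by the rule's threshold and 0 reached 50 CPM in both DMSO libraries. In embryos 39 were tested, 0 passed in edgeR, and 1 was lower and 0 higher at an unadjusted p under 0.05. In mESCs 16 were tested, of which 1 was called higher and 10 lower in KO, where 43.9% of all tested genes were called and 22.3% were called higher. The genes of this list that were silent in mESCs thus lay below the embryo threshold of the rule. The list does not hold Khdc1a or Khdc1c, so this does not extend to all genes expressed in oocytes. Of 37 genes of genome activation, 27 were in both tables, 9 were silent in WT and 2 reached 50 CPM. In embryos 25 were tested, 0 passed, and 0 were lower and 1 higher at an unadjusted p under 0.05, with a median log2 fold change of 0.30. In mESCs 21 were tested, and 11 were called higher (22.3% of all tested genes) and 0 lower. These genes, among them the Zscan4 and Obox families, have near-identical copies that can share reads, so single members are uncertain. Of 28 trophectoderm and epithelial genes, 6 reached 50 CPM in DMSO embryos and 3 were silent in WT. In embryos 20 were tested, 0 passed, and 2 were lower and 1 higher at an unadjusted p under 0.05. In mESCs 25 were tested, with 10 called higher (22.3% of all tested genes) and 7 lower (43.9% called in either direction).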

How the data were processed

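RNA and chromatin files were used as deposited by the authors. The authors' mESC values are estimated counts (each an expected count, not always whole) per Ensembl gene, as deposited, with kallisto and mm10 named in the submitters' processing notes. The authors' embryo values are read counts by gene symbol, as deposited, all of them whole, with STAR, HTSeq and mm10 named there. The deposited peak lists were called per library, with Bowtie2, MACS2 and mm10 named in the submitters' processing notes, and give the authors' peak score, fold enrichment (ratio over background) and −log10 p and q. Versions are not given in the sources used here.

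CPM was the count times 1000000 over the library total, without Rn45s in embryos. Whether groups overlapped was read from CPM, which carries no TMM scaling, in embryos and in mESCs. Estimated counts were rounded for the fits. edgeR 4.0.16 in R 4.3.3 (filterByExpr, TMM scaling, quasi-likelihood F test, Benjamini-Hochberg over all tested genes, threshold 0.05) was run separately on embryos (2 against 2) and mESCs (3 against 2), after a test on simulated data. SE is the log2 fold change over the root of F. Alternatives were DESeq2 1.42.0, limma-voom (limma 3.58.1), other scalings, other filters, a replicate block, Rn45s left out and each library left out. Peaks counted by an overlap of at least 1 bp with a RefSeq gene body of GRCm38.p6, the assembly that mm10 names. The rule for the genes named took all members, plus the 3 genes nearest outside each threshold. The members and lists were chosen with earlier results of these data known. Columns without a sample numbered 0. Python 3.11.15, pandas 2.3.3, Biopython 1.88 and matplotlib 3.10.9 were used. Intervals and limits cover counting error only.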

Additional observations from a re-analysis of the deposited data

Results flagged for a closer look

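In 3 genes the libraries moved in opposite ways in the 2 systems, lower in both inhibitor libraries than in both DMSO libraries, and higher in both KO mESC libraries than in all WT libraries. The mean with SGC0946 over the mean with DMSO was 0.745 for Alppl2, 0.796 for C130026I21Rik and 0.836 for Guca1a. The difference between the systems was not tested. The share of all genes that moved in both ways was not computed, so the count of 3 has no background beside it. Taken singly, 14.6% of tested genes in embryos were lower in both inhibitor libraries. In mESCs, 43.7% of tested genes, and 17.4% of rows silent in WT with a count, were higher in both KO libraries. An inhibitor in embryos and a knockout in mESCs are different treatments of different cells, and the genes were chosen for high DMSO and low WT values, which enter both contrasts. In mESCs Alppl2 had 9 and 17 counts in KO, against 2, 3 and 3 counts in WT, and it did not pass the filter on low counts there.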

How the results depend on the processing

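For the embryo comparison, the number of the 14 genes called was 2 in DESeq2, 1 in limma-voom, 1 without a filter and 0 to 2 with 1 library left out. Among all genes, 126 were called in DESeq2, 55 in limma-voom, 111 without a filter, 23 with at least 10 counts in every library, and 4 to 365 with 1 library left out. With 1 library left out, 2 to 6 of the 14 had an unadjusted p under 0.05 and their median log2 fold change was −0.422 to −0.118, and a lone library was assumed to vary like the others. Deviations of same-numbered libraries from their group means correlated at 0.0524 in embryos and at 0.00685 and −0.0259 in mESCs. These values show no pairing by replicate number. With 2 libraries per embryo group only 1 such value is independent, so the check cannot exclude pairing. With a replicate block, 171 genes were called in embryos, of which 1 was Alppl2 (adjusted p = 0.000627), and C130026I21Rik was not called in mESCs (adjusted p = 0.0897).

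In mESCs, 1 of the 14 genes was called in DESeq2 and 1 with at least 10 counts in every library (2 tested). Without a filter 5 were called, and with 1 WT library left out 2 or 3. Among all genes, 6765 of 19532 were called in DESeq2 and 8311 of 17909 with at least 10 counts in every library. Without a filter it was 8945 of 28076, and with 1 WT library left out 7179 to 7491 were called. Requiring a mean KO level of 1 CPM left 1 gene.

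The direction changed for Vnn1 in embryos, with log2 fold changes of −0.00199 in DESeq2, −0.00195 with DESeq2 size factors, −0.0114 in limma-voom and −0.0036 with the block. With 1 library left out, values spanned 0 for Vnn1 (−0.142 to 0.135), Bex6 (−0.687 to 0.0365), Khdc1a (−0.259 to 0.0677) and Khdc1c (−0.212 to 0.0586) in embryos, and for Adtrp (−1.73 to 0.121), Samd1 (−0.419 to 0.847), Bex6 (−0.478 to 1.25) and Cilp (−1.39 to 0.149) in mESCs. None of these was called.

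The rule kept 26 genes at 25 CPM in embryos, 7 at 0.25 CPM and 25 at 1 CPM in mESCs, and 12 with Rn45s in the embryo totals, where Cilp and Foxe1 were lost. The median log2 fold change in embryos was −0.172 at 25 CPM and −0.186 at 100 CPM in embryos, and −0.0889 at 0.25 CPM and −0.227 at 1 CPM in mESCs. The rule as written, by table row, kept 16, with a median of −0.22, and the restriction to 14 was chosen after seeing the data. H3K79me3 lay on 2 of the 14 genes in WT list 1 alone (24.8% of placed genes) and on 0 among the highest-scoring peaks (6.08% of placed genes). The cause of these changes was not tested. Depth limits the mESC values, since the 14 genes had 1 to 41.4 counts in all over the 3 WT libraries.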

Other observations

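Relatives and neighbours of the 14 genes, chosen after the 14 were known, had other levels. Alpl, the alkaline phosphatase that marks stem cells, stood at 37.2 and 18.2 CPM in DMSO embryos and at 152.6, 139.6 and 145.6 CPM in WT mESCs, the reverse order of Alppl2. Alpi and Akp3, which adjoin Alppl2 on chromosome 1, stood at 0 to 0.463 CPM in DMSO embryos and at 0 to 1.88 CPM in WT mESCs. Sp110, an immune nuclear body gene in the chromosome 1 stretch that also holds C130026I21Rik, stood at 1637 and 1546 CPM in DMSO embryos and at 2.94, 2.04 and 2.72 CPM in WT mESCs, above the rule's limit there, and Sp140 beside it at 126.6 and 124.4 CPM against 0.597 to 0.638 CPM. Sp100, in the same stretch, was at 0 in all embryo libraries and at 6.24, 6.97 and 6.45 CPM in WT mESCs. Bex1, Bex2 and Bex4, the chromosome X relatives of Bex6, stood in WT mESCs at 345.2 to 352.3, 42.4 to 44.8 and 140.3 to 148.1 CPM. Each was lower in KO, with log2 fold changes of −1.05, −0.78 and −0.94 and edgeR adjusted p-values of 2.6e-09, 1.75e-06 and 1.2e-07. Khdc1b, a neighbour of Khdc1a and Khdc1c, stood at 41.5 and 55.4 CPM in DMSO embryos, just under the rule's threshold in one library, and at 0.271 to 0.296 CPM in WT mESCs.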
